A study of Sus scrofa with 6 samples.

Results

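RUNX1, RUNX2 and RUNX3, their DNA-binding partner CBFB, the transcription factors TEAD1, TEAD2, TEAD3 and TEAD4, and the TEAD coactivators YAP1 and WWTR1 (the gene of TAZ) were measured in porcine embryonic fibroblasts (PEFs) and in porcine induced pluripotent stem cells (piPSCs). These 10 genes were taken by name from an RNA-seq table of 18007 genes, and all 10 were found. RUNX factors bind DNA as dimers with the beta subunit CBFB, and are known for their parts in blood and bone formation. In the Hippo pathway, a cascade of the MST and LATS kinases holds YAP and TAZ in the cytoplasm by phosphorylation. When the cascade is low, both enter the nucleus and bind TEAD factors, which have no strong activation domain of their own, and genes of matrix, adhesion and cell growth are transcribed.

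The study asked how transcription and chromatin of fibroblasts change on reprogramming. PEF5, PEF7 and PEF8 were fibroblast lines from the ear tips of embryos of embryonic day 90, from a Large White boar and a Meishan sow, and had received no reprogramming factor. Each was infected with lentiviruses that carry OCT4, SOX2, KLF4 and c-MYC under a doxycycline-dependent promoter and the transactivator M2rtTA, and colonies picked onto mouse embryonic feeder cells gave piPSC5, piPSC7 and piPSC8. The factors stayed dependent on doxycycline, and each line was sequenced as 1 library. Poly-A RNA was sequenced, and levels are FPKM, fragments scaled to gene length and library size, so that genes of different length can be compared. Library totals were 17836510 fragments in PEF5, 16713472 in PEF7, 15146576 in PEF8, 15050204 in piPSC5, 11892011 in piPSC7 and 11010629 in piPSC8. Errors of means are SDs among the 3 lines.

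The cell types were checked against marker genes before the comparison. Of 10 fibroblast markers, 9 were called lower in piPSCs (limma adjusted p under 0.05), beside 21.5% of all genes tested. The 10 markers summed to 4370, 6204 and 5044 FPKM in PEF5, PEF7 and PEF8. In piPSC5, piPSC7 and piPSC8 the sums were 223, 130 and 159 FPKM. COL1A2 was the most abundant by the mean over the 6 libraries, while COL1A1 led in PEF7 and COL3A1 in PEF8 and each piPSC library, and POSTN was not called. Of 10 pluripotency genes 5 were measured, with sums of 0.0247, 0.0281 and 0.0854 FPKM in the PEFs and 5.57, 2.87 and 9.03 FPKM in the piPSCs. Of these, SOX2 stood at 3.01, 2.49 and 0.129 FPKM and LIN28B at 2.51, 0.281 and 8.90 FPKM in piPSC5, piPSC7 and piPSC8. Neither was called (limma adjusted p = 0.0626 and 0.0667), though SOX2 was without piPSC8 (0.00257), LIN28B was without piPSC7 (0.00922), and both were with voom on fragments (0.0258 and 0.0355) and a pseudocount of 0.1 (0.0376 and 0.0242). Quantile normalization also gave a call of SOX2 (0.0265). SOX2 was also among the delivered factors, and transcripts of the delivered copy and of the cell's own gene were not told apart here. NANOG had 0 fragments in piPSC5 and piPSC8 and 1 in piPSC7, and SALL4 and ESRRB reached at most 0.0509 FPKM in any library, so these defining markers were at or near 0. POU5F1, LIN28A, TDGF1, DPPA4 and PRDM14 were not analysed here. All lines were described as male, yet DDX3Y, a gene of the Y chromosome, was at 25.3 FPKM in PEF8 and 42.5 in piPSC8 and had 0 fragments in PEF5, PEF7, piPSC5 and piPSC7.

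RUNX1, TEAD3 and YAP1 fell and TEAD4 rose in piPSCs, and the other 6 genes did not pass the test. With the cell line as a block, TEAD3 was not called (limma adjusted p = 0.0945). Testing used limma for the 12428 genes that averaged at least 0.5 FPKM, and a gene was called at an adjusted p under 0.05. All 10 family members passed this filter, RUNX3 through its PEF levels alone. The mean was taken over all 6 libraries, so a gene near 0 in 1 group could pass by its level in the other. Other tested genes with a piPSC mean under 0.5 FPKM included DCHS1, NT5E, NUAK2, TGFB2, F3, CSF2, GFI1, CD14, LCP1, GATA2, TFAP2C, SOX9 and PECAM1. Those with a PEF mean under 0.5 FPKM included MYB, IBSP, SOX2, LIN28B and DES. Of the 10, 3 were called lower (RUNX1, TEAD3 and YAP1), beside 21.5% of all genes tested, and 1 was called higher (TEAD4), beside 30.3%. For 5 of the 10 the PEF and piPSC values did not overlap, beside 64.1% of all genes tested, so these counts do not set the families apart from other genes. Without PEF5, PEF7 or piPSC5 only 2 of the 10 were called, beside 5290, 5135 and 4829 of the 12436, 12471 and 12409 genes tested. Over all genes the median log2 fold change was 0.20, as 3763 genes were called higher and 2667 lower. After rescaling libraries by their median ratio the median was -0.01, with 2827 higher and 3265 lower, and with equal sums it was -0.07, with 2629 higher and 3481 lower. Changes below are to be read against this shift. They are on the log2(FPKM + 1) scale, which understates the change of genes with low levels. Less RNA per cell and fewer cells of a type cannot be told apart in such libraries.

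**Figure D1:**
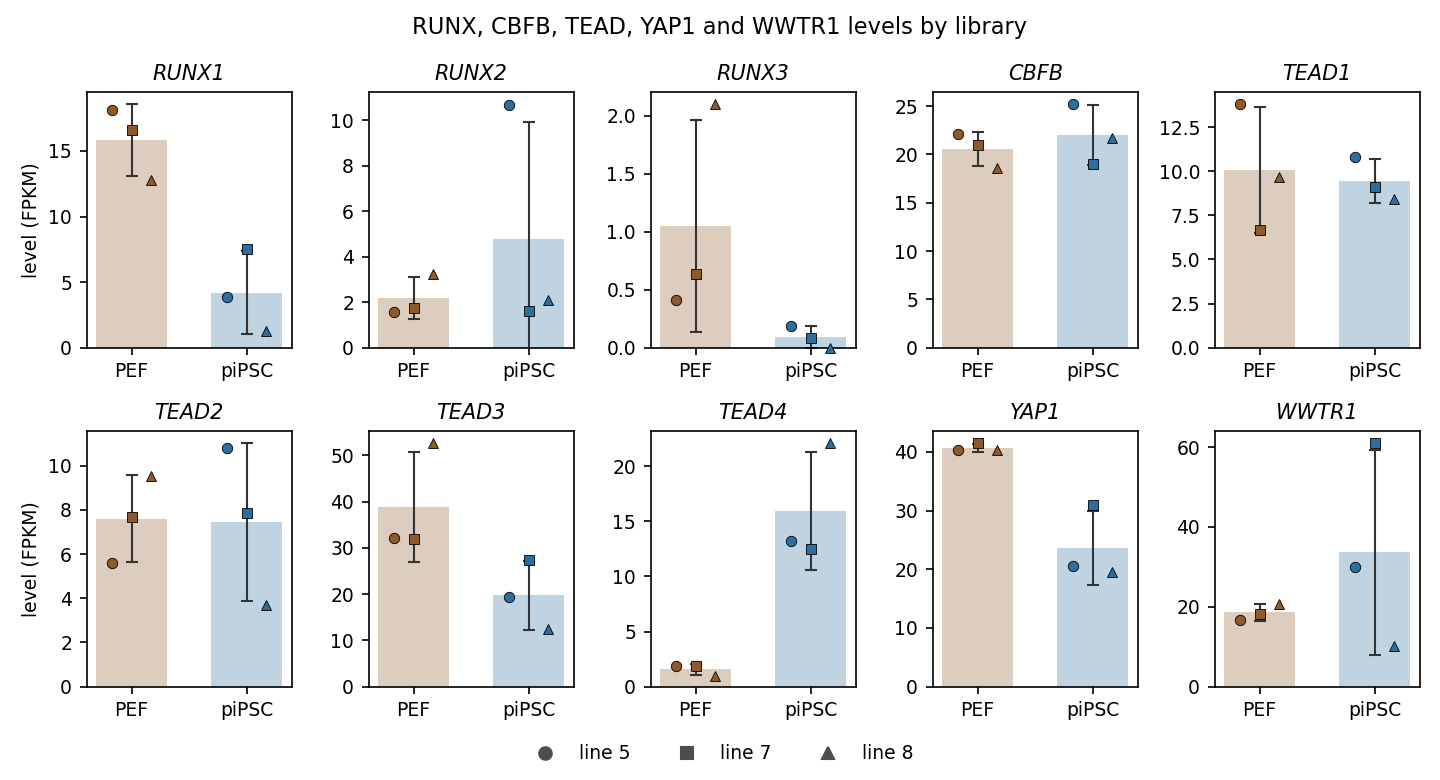
Levels in FPKM (vertical axes, each from 0) of the 10 genes in PEF and piPSC libraries. Symbols are the 3 lines, bars the group means and error bars the SD (n = 3); RUNX1 and YAP1 are lower and TEAD4 is higher in each piPSC library than in every PEF library, and RUNX2 and WWTR1 are spread widely among the piPSCs.

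RUNX1 (ENSSSCG00000035537, chromosome 13 from 198371837 to 198635596 of Sscrofa11.1), the RUNX factor needed for blood stem cells, was the main RUNX gene of the fibroblasts. Its level was 18.1, 16.6 and 12.8 FPKM in PEF5, PEF7 and PEF8 and 3.86, 7.51 and 1.24 FPKM in piPSC5, piPSC7 and piPSC8. All piPSC values lay below all PEF values, with piPSC7 keeping the highest and piPSC8 the lowest level. The mean fell from 15.9 ± 2.70 to 4.20 ± 3.15 FPKM (SD, n = 3), a log2 fold change of -1.88 with an SE of 0.47 (limma adjusted p = 0.0158). The call was lost without PEF5 (adjusted p = 0.0533) or PEF7 (0.0506), and over all 15 alternatives the adjusted p ran from 0.00608 to 0.0533. The study silenced RUNX1 with a short hairpin RNA, whose target sequence is shown because it ties the measured gene to that experiment. It matches chr13:198461747-198461767 of Sscrofa11.1 on the minus strand, in coding exon sequence of 4 of the 4 RefSeq transcripts of RUNX1. The whole run is the target, so no letter is in capitals.
RUNX1 shRNA target: tactcagctgaactgagaaat

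RUNX2 (ENSSSCG00000001710, chromosome 7 from 40106513 to 40349398), the factor that directs bone formation, had 1.56, 1.75 and 3.25 FPKM in PEF5, PEF7 and PEF8 and 10.7, 1.60 and 2.11 FPKM in piPSC5, piPSC7 and piPSC8. Only piPSC5 stood apart, and the other piPSC values lay within the PEF range. The log2 fold change was 0.55 with an SE of 0.59 (limma adjusted p = 0.454), and -0.13 without piPSC5. RUNX2 overlaps SUPT3H on the opposite strand over 54616 bases, and the library kit is not described as one that marks strand, so fragments of both genes cannot be fully told apart. RUNX3 (ENSSSCG00000032686, chromosome 6 from 82528975 to 82560557), known from T cells and sensory neurons, had 44, 64 and 191 fragments in the PEFs and 17, 6 and 0 in the piPSCs. These are 0.41, 0.636 and 2.1 FPKM against 0.188, 0.0838 and 0 FPKM, where 0 fragments in piPSC8 allow up to 0.0453 FPKM. Every piPSC value was below every PEF value, PEF8 being the highest. With a log2 fold change of -0.82 (SE 0.35) RUNX3 did not pass the test (limma adjusted p = 0.0854), though it did with a pseudocount of 0.1 (0.0443), with equal sums (0.0399) and with voom on fragments (0.0395). CBFB (ENSSSCG00000033811, chromosome 6 from 27684323 to 27750852), the shared beta subunit, was near-constant at between 18.6 and 25.2 FPKM over the 6 libraries. Its log2 fold change was 0.09 with an SE of 0.16 (limma adjusted p = 0.676), and it turned to -0.17 and -0.23 under median ratio and equal sum rescaling. CBFB overlaps C16orf70 over 2244 bases and ENSSSCG00000003367 over 1349 bases, both on the same strand. Of the TEAD genes below, TEAD2 overlaps CD37 and TEAD3 overlaps ENSSSCG00000038014, each on the opposite strand.

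Summed over RUNX1, RUNX2 and RUNX3, the RUNX level was 20, 19 and 18.2 FPKM in PEF5, PEF7 and PEF8 and 14.7, 9.19 and 3.35 FPKM in piPSC5, piPSC7 and piPSC8. Each piPSC line thus had less RUNX mRNA in all than each PEF line, while CBFB stayed at a similar level. RUNX1 made up 90.2%, 87.5% and 70.6% of the sum in the PEFs and 26.2%, 81.7% and 37.1% in the piPSCs. In piPSC5 and piPSC8, RUNX2 took the larger share, 72.5% and 62.9%, whereas piPSC7 kept a make-up like that of the PEFs with 17.4%. For RUNX1 the mean share differed by -34.4 percentage points and for RUNX2 by 39.3, each with an exact permutation p of 0.2, two-sided (-21.2 and 26.1 with shares of recovered fragments). With 3 lines against 3 this test cannot give a p under 0.1. RUNX3 held 2.05%, 3.34% and 11.5% in the PEFs and 1.28%, 0.912% and 0% in the piPSCs, without overlap (exact permutation p = 0.1). The RUNX3 difference of -4.91 points was -1.97 without PEF8, and the p was 0.2 with shares of recovered fragments.

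TEAD4 (ENSSSCG00000000736, chromosome 5 from 67124726 to 67194381), the TEAD factor needed for trophectoderm in the early embryo, changed most among the 10 genes on the log2(FPKM + 1) scale, which gives less weight to low levels such as those of RUNX3. It stood at 1.90, 1.84 and 0.96 FPKM in PEF5, PEF7 and PEF8 and at 13.2, 12.5 and 22.1 FPKM in piPSC5, piPSC7 and piPSC8. All piPSC libraries were far above all PEF libraries, with piPSC8 the highest. The mean was 1.57 ± 0.527 FPKM in PEFs and 15.9 ± 5.35 FPKM in piPSCs (SD, n = 3), 10.1-fold higher, at a log2 fold change of 2.70 with an SE of 0.29 (limma adjusted p = 0.000788). TEAD4 was called under each of the 15 alternatives, at an adjusted p of at most 0.0062.

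TEAD3 (ENSSSCG00000001544, chromosome 7 from 31337890 to 31351452), the most abundant TEAD gene of the fibroblasts, had 32.1, 31.9 and 52.6 FPKM in the PEFs and 19.4, 27.3 and 12.5 FPKM in the piPSCs. The groups did not overlap, but piPSC7 came close to PEF5 and PEF7. The log2 fold change was -0.97 with an SE of 0.33 (limma adjusted p = 0.0441). This call is a weak one, as it was lost with the cell line as a block (adjusted p = 0.0945), without a filter (0.0702), without a trend (0.0516) and with voom (0.0512). Without PEF5, PEF7, PEF8, piPSC5 or piPSC8 the adjusted p was between 0.0682 and 0.119, and over all 15 alternatives it ran from 0.0159 to 0.119. TEAD1 (ENSSSCG00000013399, chromosome 2 from 46400066 to 46670472), a broadly expressed TEAD known from heart and muscle, lay between 6.68 and 13.8 FPKM in PEFs and between 8.41 and 10.8 FPKM in piPSCs. TEAD2 (ENSSSCG00000025568, chromosome 6 from 54448188 to 54462285), known from the early embryo and neural tube, lay between 5.59 and 9.53 FPKM and between 3.70 and 10.8 FPKM. For both the groups overlapped, with log2 fold changes of -0.04 (SE 0.27, limma adjusted p = 0.915) and -0.10 (SE 0.37, limma adjusted p = 0.841), and both changed sign when single libraries were left out (TEAD1 to 0.20 without PEF5 and 0.03 without piPSC8, TEAD2 to 0.06 without PEF8 and 0.28 without piPSC8).

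In FPKM as given, the summed TEAD level did not separate the groups, at 53.4, 48.1 and 72.7 FPKM in PEF5, PEF7 and PEF8 and 54.2, 56.8 and 46.7 FPKM in piPSC5, piPSC7 and piPSC8 (exact permutation p = 0.7). Over all genes, FPKM summed to between 337074 and 348943 in PEFs and between 420498 and 437853 in piPSCs. The TEAD sum was not rescaled for this difference. The median log2 fold change of the TEAD genes was -0.07, and -0.31 and -0.38 under median ratio and equal sum rescaling. Within the summed TEAD level, TEAD4 took 3.56%, 3.82% and 1.32% in the PEFs and 24.3%, 22% and 47.3% in the piPSCs. TEAD3 took 60.2%, 66.3% and 72.3% in the PEFs and 35.9%, 48.1% and 26.8% in the piPSCs. The mean share thus differed by 28.3 percentage points for TEAD4 and -29.3 for TEAD3, with no overlap between groups. The exact permutation p was 0.1 each, the smallest the unpaired test allows. With the line as a block it was 0.25 each, the smallest that test allows. TEAD1 and TEAD2 had mean shares of 17.7% and 13.2% in PEFs and of 18% and 13.9% in piPSCs (exact permutation p = 1 and 0.9). With shares of recovered fragments, in which long genes weigh more, the TEAD1 difference was -13.1 points (exact permutation p = 0.1). In piPSC8, TEAD4 was the leading TEAD gene, and in piPSC5 and piPSC7 it came second to TEAD3.

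**Figure D2:**
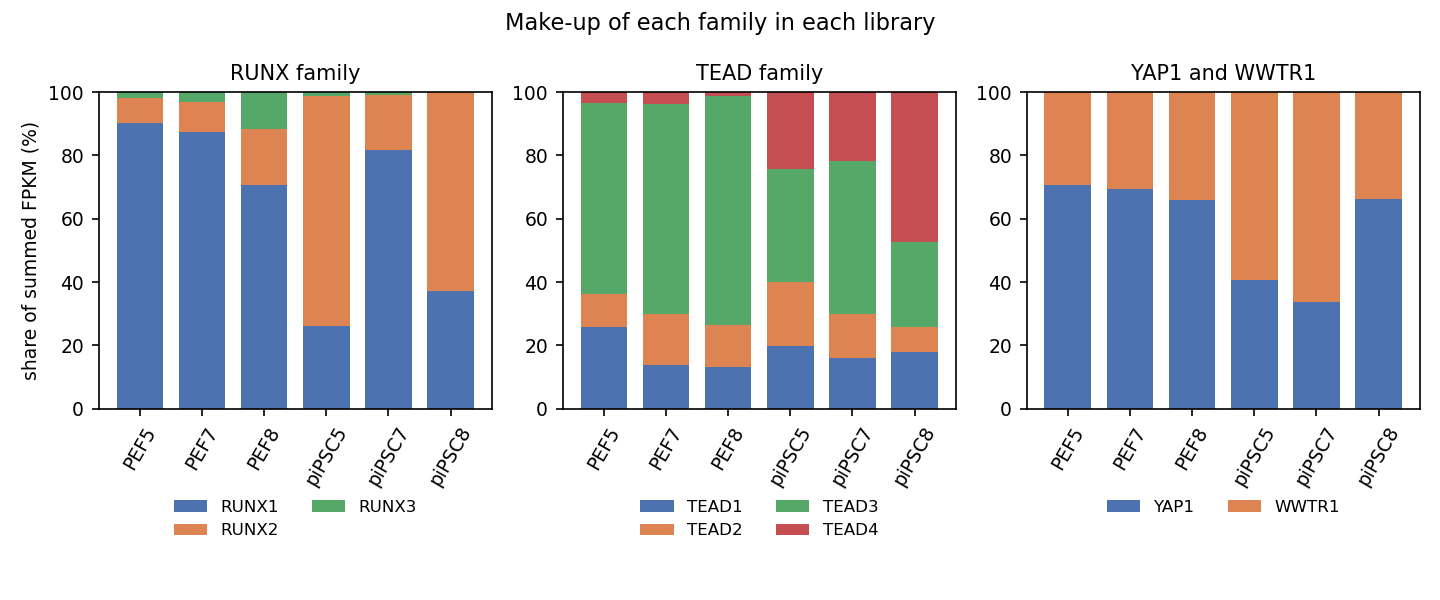
Share of each gene in the summed FPKM of its family (vertical axis, percent) in each of the 6 libraries, for the RUNX genes, the TEAD genes and the pair of YAP1 and WWTR1. TEAD4 grows from at most 3.82% in PEFs to at least 22% in piPSCs, RUNX2 leads in piPSC5 and piPSC8 alone, and WWTR1 leads YAP1 in piPSC5 and piPSC7 alone.

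YAP1 (ENSSSCG00000031429, chromosome 9 from 32811231 to 32925606), the coactivator held back by the Hippo kinases, was at 40.4, 41.5 and 40.3 FPKM in PEF5, PEF7 and PEF8 and at 20.5, 30.9 and 19.6 FPKM in piPSC5, piPSC7 and piPSC8. The PEF lines were nearly equal, and all piPSC lines lay below them, piPSC7 the least far. The mean fell from 40.7 ± 0.653 to 23.7 ± 6.27 FPKM (SD, n = 3), a log2 fold change of -0.79 with an SE of 0.20 (limma adjusted p = 0.0164). Without piPSC5 the adjusted p was 0.0615, the highest of 15 alternatives, which went down to 0.00483. WWTR1 (ENSSSCG00000011704, chromosome 13 from 89746016 to 89889187), whose protein TAZ is the paralog of YAP, had 16.8, 18.2 and 20.8 FPKM in the PEFs and 30, 61 and 10.1 FPKM in the piPSCs. It was above the PEF range in piPSC5 and piPSC7 and below it in piPSC8, so the piPSC lines did not share a direction. The log2 fold change was 0.50 with an SE of 0.58 (limma adjusted p = 0.489), -0.08 without piPSC7 and 1.16 without piPSC8 (adjusted p = 0.0289). YAP1 held 70.6%, 69.5% and 66% of the sum of both genes in the PEFs and 40.6%, 33.6% and 66.1% in the piPSCs (exact permutation p = 0.2), a mean difference of -21.9 points, or -12.2 with recovered fragments. The sum itself was between 57.2 and 61.2 FPKM in PEFs and at 50.5, 91.9 and 29.7 FPKM in piPSC5, piPSC7 and piPSC8.

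By mean level in PEFs, YAP1 and TEAD3 came first, then CBFB, WWTR1, RUNX1, TEAD1, TEAD2, RUNX2, TEAD4 and RUNX3. The ranges of neighbours in this order overlapped except between TEAD3 and CBFB and between TEAD2 and RUNX2. In piPSCs the order was WWTR1, YAP1, CBFB, TEAD3, TEAD4, TEAD1, TEAD2, RUNX2, RUNX1 and RUNX3. Here the ranges of neighbours overlapped except between TEAD4 and TEAD1 and between RUNX1 and RUNX3. TEAD4 moved from rank 9 to rank 5, and RUNX1 from rank 5 to rank 9.

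Of the Hippo kinases, through which YAP and TAZ are phosphorylated, and their adaptors, 11 genes were tested. Of them 3 were called higher and 1 lower, beside 30.3% and 21.5% of all genes tested, with a median log2 fold change of 0.38 beside 0.20 over all genes, and of 0.12 and 0.08 under median ratio and equal sum rescaling. The gene counted as MOB1B is listed as DCK and spans both of these neighbouring genes of RefSeq. LATS2, the kinase that acts on YAP directly and is itself a YAP target, had 17.5, 23.5 and 19.6 FPKM in PEF5, PEF7 and PEF8 and 5.38, 3.12 and 4.75 FPKM in piPSC5, piPSC7 and piPSC8. The piPSC values were all far below the PEF values (log2 fold change -1.98, SE 0.23, limma adjusted p = 0.000937). The called increases were smaller, at 0.72 for the kinase STK4 (limma adjusted p = 0.029), 0.76 for its scaffold SAV1 (0.0155) and 0.59 for the LATS partner MOB1A (0.00883). None of these 3 kept its call when the libraries were rescaled to the median ratio (adjusted p = 0.0866, 0.0605 and 0.103) or to equal sums (0.154, 0.0862 and 0.13). The call of STK4 was also lost without PEF5, PEF7, PEF8, piPSC5 or piPSC8 (adjusted p between 0.0625 and 0.0972), and that of SAV1 without piPSC5 (0.0546). STK3, the other MST kinase, was not called at 16 ± 1.41 FPKM in PEFs and 21 ± 0.789 FPKM in piPSCs (limma adjusted p = 0.0622), and was called with no filter (0.0476). MOB1A overlaps MTHFD2 and SAV1 overlaps ATL1 on the opposite strand, and such fragments cannot be told apart.

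Of genes that act upstream of the kinases, at the membrane and at cell junctions, 14 were tested. Of them 6 were called lower and 1 higher, beside 21.5% and 30.3% of all genes tested, with a median log2 fold change of -0.52, and of -0.73 and -0.92 under median ratio and equal sum rescaling. DCHS1, a large cadherin that binds FAT4, had 17.5, 17 and 19.7 FPKM in the PEFs and 1.12, 0.0941 and 0.102 FPKM in the piPSCs. It was almost lost from piPSC7 and piPSC8, with 11 fragments each, while piPSC5 kept 165 (log2 fold change -3.80, SE 0.30, limma adjusted p = 0.000343). RASSF1, an MST-binding scaffold, fell from 26.2 ± 1.68 to 4.49 ± 0.367 FPKM (SD, n = 3; limma adjusted p = 0.000217). The LIM proteins AJUBA and LIMD1, which both bind and restrain LATS, went opposite ways. AJUBA fell from 14.7 ± 3.31 to 2.02 ± 0.848 FPKM (limma adjusted p = 0.00113) and LIMD1 rose from 3.97 ± 0.261 to 15.1 ± 1.97 FPKM (limma adjusted p = 0.000701). Of the angiomotins, which hold YAP at junctions, AMOTL1 fell by 1.56 and AMOTL2 by 2.03 on the log2 scale (limma adjusted p = 0.00516 and 0.012). AMOT was not called (log2 fold change 0.65, limma adjusted p = 0.139). It had 12.3, 7.67 and 4.64 FPKM in piPSC5, piPSC7 and piPSC8 against 4.56 ± 0.698 FPKM in PEFs. FAT1, an atypical cadherin, was called lower at an adjusted p of 0.0479 and was not called without a filter (0.0796), without a trend (0.0543) or without any single library other than piPSC5 (between 0.0708 and 0.141). NF2, the merlin scaffold, stood at 17.2 ± 4.26 and 24.1 ± 2.67 FPKM and was not called (limma adjusted p = 0.0881), though it was without PEF5 (0.0302).

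The VGLL proteins bind TEAD factors at the surface that YAP uses. VGLL3 fell from 33 ± 7.44 to 9.23 ± 5.16 FPKM (SD, n = 3), a log2 fold change of -1.84 with an SE of 0.39 (limma adjusted p = 0.00869). The piPSC values of 14.7, 4.51 and 8.44 FPKM were all below the lowest PEF value of 26.5. VGLL4, which competes with YAP for TEAD, fell from 12.9 ± 2.08 to 7.38 ± 0.91 FPKM (limma adjusted p = 0.0176), a call lost without PEF7, PEF8 or piPSC5 (between 0.0532 and 0.0613). It overlaps ATG7 on the opposite strand. VGLL1 and VGLL2 were too low to be tested.

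**Figure D3:**
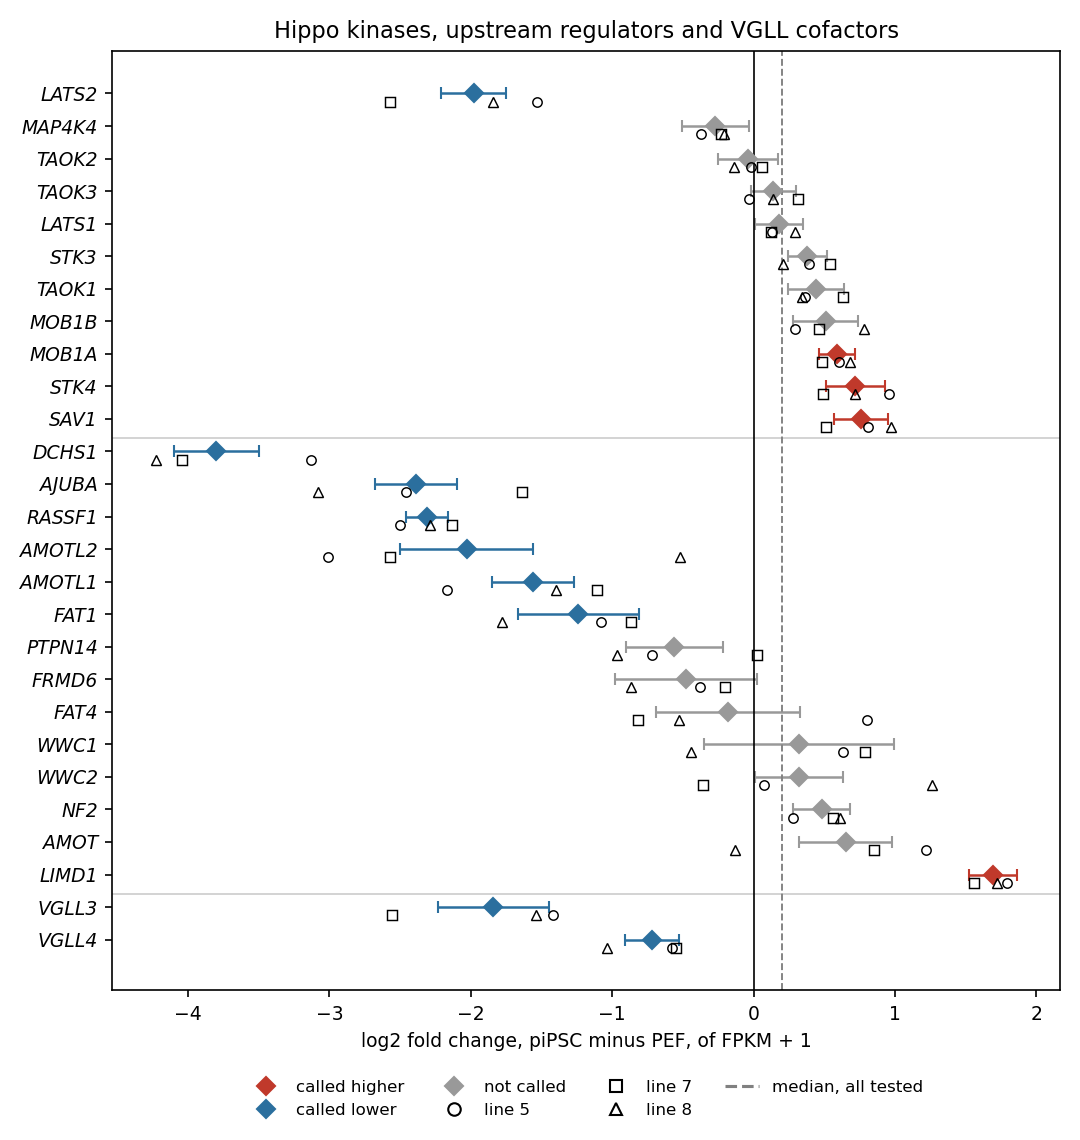
Log2 fold changes (horizontal axis, piPSC minus PEF on the log2 scale of FPKM + 1) of Hippo kinases and adaptors, upstream regulators and VGLL cofactors, in 3 blocks from top to bottom. Diamonds with bars are limma estimates ± SE, open symbols the difference within each numbered pair of lines, and the dashed line is the median of 0.20 over all tested genes; LATS2 and DCHS1 lie farthest to the left in their blocks and LIMD1 farthest to the right.

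Most target genes of YAP and TEAD were lower in piPSCs. Of 22 listed genes 20 were tested by limma, 13 of them called lower, 0 higher and 7 not called, beside 21.5% of all genes tested called lower and 30.3% higher. At an unadjusted p under 0.05 the higher count was 1 (DOCK5), and with voom on fragments it was 0. The median log2 fold change was -1.95, beside 0.20 over all genes, and -2.20 and -2.41 under median ratio and equal sum rescaling. CCN1 (listed as CYR61) and CCN2 (listed as CTGF), matricellular proteins and the targets most used as a readout of YAP, were among the most abundant. CCN1 had 162, 246 and 63.9 FPKM in PEF5, PEF7 and PEF8 and 27.5, 55.3 and 29 FPKM in piPSC5, piPSC7 and piPSC8. CCN2 had 167, 117 and 24.3 FPKM in the PEFs and 14, 23 and 9.50 FPKM in the piPSCs. Both fell, and PEF8 was the lowest of the PEFs for each, close to the highest piPSC, which was piPSC7. The log2 fold changes were -1.92 (SE 0.52, limma adjusted p = 0.021) for CCN1 and -2.35 (SE 0.72, limma adjusted p = 0.0317) for CCN2. Without PEF5, PEF7, piPSC5 or piPSC8 the adjusted p was between 0.0557 and 0.0704 for CCN1 and between 0.0815 and 0.098 for CCN2, and without a filter it was 0.0578 for CCN2. CCN1 lies within ZNHIT6 on the opposite strand, which had a mean of 22 FPKM.

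Among targets that encode surface and signalling proteins, NT5E, AXL, TGFB2 and F3 were called lower under each of the 15 alternatives. NT5E, the surface enzyme CD73, fell from 36.1, 22.1 and 20.2 FPKM in the PEFs to 0.186, 0.0706 and 0.0254 FPKM in the piPSCs. Only 10, 3 and 1 fragments were left in piPSC5, piPSC7 and piPSC8 (log2 fold change -4.59, SE 0.26, limma adjusted p = 0.000168). The receptor tyrosine kinase AXL had 66.4, 44.1 and 60.5 FPKM in the PEFs and 2.12, 5.86 and 2.03 FPKM in the piPSCs (log2 fold change -3.83, SE 0.36, limma adjusted p = 0.000503). TGFB2, a TGF-beta ligand, fell from 13 ± 8.81 to 0.251 ± 0.0744 FPKM and F3, tissue factor, from 7.28 ± 6.76 to 0.335 ± 0.212 FPKM (SD, n = 3; limma adjusted p = 0.00422 and 0.0111). F3 was highest in PEF5, with 15.1 FPKM beside 3.6 in PEF7 and 3.15 in PEF8, and its log2 fold change of -2.35 was -1.72 without PEF5. It overlaps ABCD3 on the opposite strand. The other called decreases were those of LATS2 and AMOTL2 given above, of the kinase NUAK2 (-1.63), the matrix protein CCDC80 (-2.06), the RNA-binding RBMS3 (-1.15), the exchange factor ARHGEF17 (-1.09) and the membrane repair protein MYOF (-2.32). ARHGEF17 lost its call without PEF5 (adjusted p = 0.0586), and MYOF without PEF5, PEF7 or PEF8 (between 0.0721 and 0.0815) and without a filter (0.0559). The log2 fold change of MYOF was -1.45 without piPSC8, in which it was lowest.

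Not all targets were called lower. DOCK5, an exchange factor for RAC, had 3.96, 2.99 and 3.06 FPKM in the PEFs and 8.76, 13.7 and 4.21 FPKM in the piPSCs. All piPSC values were above all PEF values, but the gene was not called (log2 fold change 1.07, SE 0.38, limma adjusted p = 0.0527), and was called without piPSC8 (0.0075) and with a mean of at least 1 FPKM (0.0498) or quantile normalization (0.0489). IGFBP3, an IGF-binding protein, stood at 38.1, 89.5 and 106 FPKM in the PEFs and 72.7, 4.58 and 150 FPKM in the piPSCs, being low in piPSC7 alone (limma adjusted p = 0.56). FJX1, related to a fly kinase that phosphorylates FAT and Dachsous cadherins, had 7.74, 44.9 and 1.73 FPKM in the piPSCs and was not called (limma adjusted p = 0.124), but was called lower without piPSC7 (0.00956). CRIM1 was not called in the unpaired fit (log2 fold change -0.85, limma adjusted p = 0.0777) and was called with the line as a block (adjusted p = 0.0159), under both rescalings (0.0283 and 0.0394) and without piPSC5 (0.0413). Without piPSC7 the log2 fold change of IGFBP3 was 0.55. CRIM1 overlaps FEZ2 on the opposite strand.

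**Figure D4:**
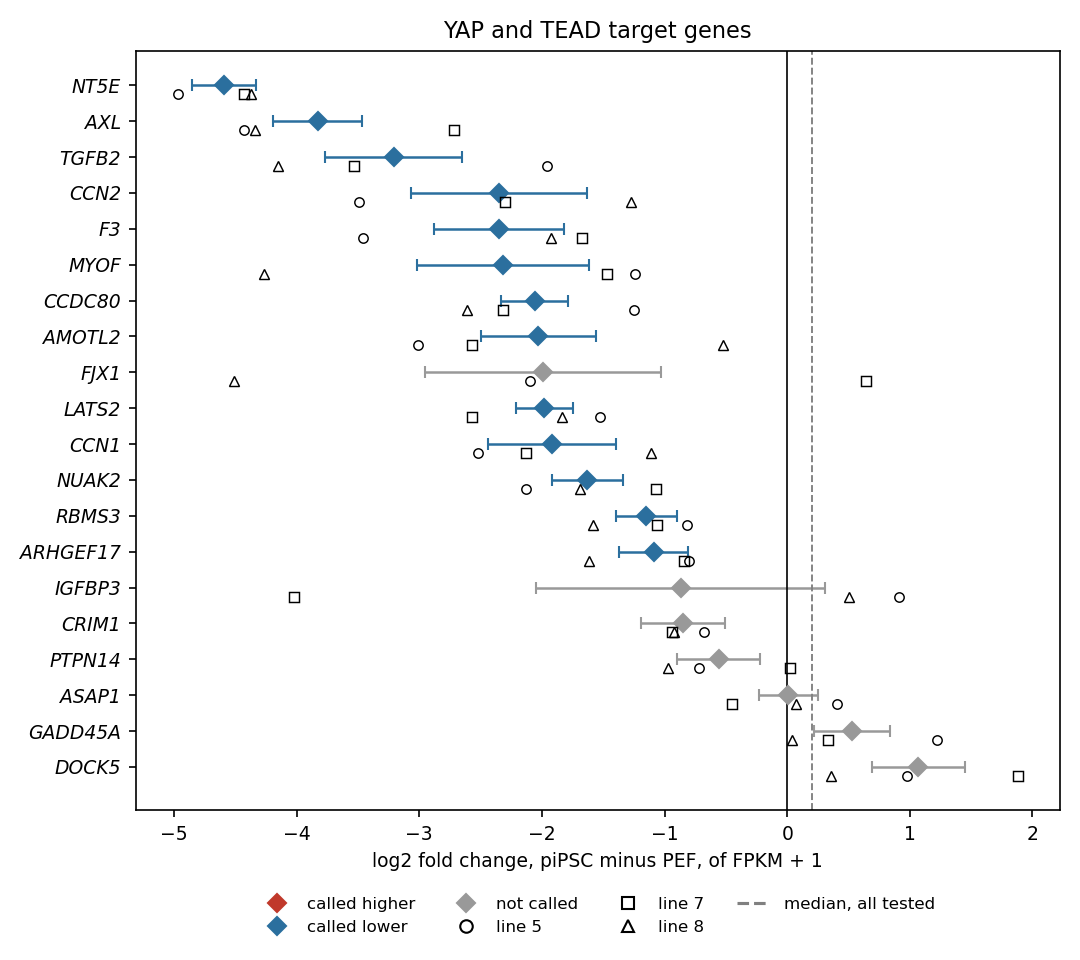
Log2 fold changes (horizontal axis, piPSC minus PEF on the log2 scale of FPKM + 1) of the 20 tested YAP and TEAD target genes. Diamonds with bars are limma estimates ± SE, open symbols the difference within each numbered pair of lines, and the dashed line is the median of 0.20 over all tested genes; the 13 called genes all lie to the left, from NT5E to ARHGEF17.

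Promoters were read from RefSeq gene starts on Sscrofa11.1, from 250 bases before to 50 bases after the start. They were searched on both strands for the 6 letters GGAATG or CATTCC, the core of the TEAD motif. A promoter was found for all 22 target genes, and 6 held a match, namely CCN1, CCN2, ANKRD1, LATS2, NUAK2 and ASAP1. Matches were present in 11.8% of all 19531 promoters and in 10.7% of those of tested genes, 11.7% of those called lower and 10.2% of those called higher. CCN2 held 3 matches, at positions -170, -105 and -96 from the gene start, ANKRD1 held 2, at -199 and -108, and CCN1, NUAK2 and LATS2 held 1 each, at -80, -73 and -2. ANKRD1 was too low to be tested and was chosen once its values had been seen. Stretches of CCN1, CCN2 and NUAK2, which were called lower, are shown with the matches in capitals. They lie at chr4:130395230-130395283 on the minus strand, chr1:31674204-31674331 on the plus strand and chr9:66001709-66001762 on the minus strand, before the RefSeq gene starts at 130395179, 31674398 and 66001665 and in no RefSeq exon. The expression table starts these genes at 130395163, 31673798 and 66001999, so that its models of CCN2 and NUAK2 include the stretch. A match describes the letters and is no measured binding site.
CCN1: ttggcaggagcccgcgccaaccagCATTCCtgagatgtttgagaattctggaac
CCN2: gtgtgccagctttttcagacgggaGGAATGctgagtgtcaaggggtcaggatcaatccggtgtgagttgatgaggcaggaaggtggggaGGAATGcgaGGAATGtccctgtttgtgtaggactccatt
NUAK2: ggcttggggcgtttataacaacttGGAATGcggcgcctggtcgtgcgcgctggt

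**Figure D5:**
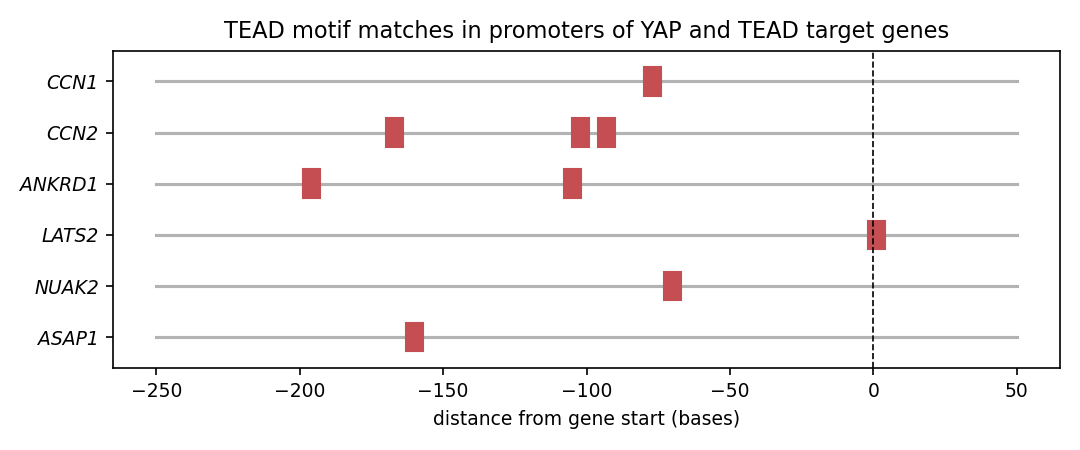
Positions of the 6-letter TEAD motif (red boxes) in the promoters of the 6 YAP and TEAD target genes that hold it, drawn by distance in bases from the RefSeq gene start (dashed line) over the window searched (grey lines). CCN2 carries 3 matches, with the nearest pair at -105 and -96, and the match of LATS2 lies at the start.

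Among RUNX corepressors and cofactors, 12 of 13 genes were tested, with 4 called higher and 0 lower, beside 30.3% and 21.5% of all genes tested, and a median log2 fold change of 0.32. At an unadjusted p under 0.05 the lower count in limma was 1 (TLE5), and with voom on fragments it was 0. The medians under median ratio and equal sum rescaling were 0.07 and 0.02. RUNX1T1, the ETO corepressor, had 0.933, 0.631 and 0.308 FPKM in PEF5, PEF7 and PEF8 and 4.43, 4.5 and 3.76 FPKM in piPSC5, piPSC7 and piPSC8. It rose in each line, at a log2 fold change of 1.70 with an SE of 0.23 (limma adjusted p = 0.00169). The acetyltransferase KAT6A, which binds RUNX1, rose from 3.93 ± 0.90 to 10.2 ± 1.99 FPKM (SD, n = 3; limma adjusted p = 0.00629). KAT6B and the corepressor SIN3A were called with log2 fold changes of 0.78 and 0.61 (limma adjusted p = 0.0257 and 0.0251). KAT6B was not called with the line as a block (adjusted p = 0.0557), with equal sums (0.0764) or without any single library other than piPSC8 (between 0.0553 and 0.0901). SIN3A was not called under either rescaling (0.0996 and 0.212) or without PEF7, PEF8 or piPSC5 (between 0.0562 and 0.0879). TLE5, the most abundant of the list and a short member of the Groucho corepressors, had 86.1, 107 and 18.6 FPKM in the piPSCs against 161 ± 14 FPKM in PEFs. It was not called (limma adjusted p = 0.0793), but was called lower under the median ratio (0.0439) and without piPSC7 (0.0432) or piPSC8 (0.0244).

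Of 9 RUNX1 target genes known from blood cells, 5 were tested, with 2 called lower and 1 higher, beside 21.5% and 30.3% of all genes tested. The median log2 fold change was -0.50, which is the same with genes at 0 set to their bounds, and -0.67 and -0.91 under median ratio and equal sum rescaling. CSF2, the cytokine GM-CSF, had 3.34, 4.36 and 14 FPKM in the PEFs and 0 fragments in each piPSC library. Set against the 3 fragments per library that 0 allows, it was at least 53.9-fold lower, or 28.7-fold without PEF8 (limma adjusted p = 0.00353). The repressor GFI1 had 67, 12 and 36 fragments in the PEFs and 0 in each piPSC library. It was at least 9.46-fold lower (limma adjusted p = 0.0191), or 6.41-fold without PEF5. The call was lost without PEF8 (0.0537) or piPSC5 (0.0556). CSF2 and GFI1 passed the filter by their PEF levels alone, and MYB by its piPSC levels alone. MYB, a factor of blood progenitors, went the other way, from 0.168, 0.0112 and 0.0124 FPKM in the PEFs to 12.8, 5.67 and 3.94 FPKM in the piPSCs, with 16, 1 and 1 fragments in the PEFs (log2 fold change 2.86, SE 0.39, limma adjusted p = 0.00179). GFI1B was not analysed here.

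Of the RUNX2 target genes of bone and cartilage, 8 were in the table and 4 were tested, of which 3 were called lower, beside 21.5% of all genes tested. Of these 3, COL1A1 and COL1A2 are collagen genes of fibroblasts. SPP1, osteopontin, had 103, 67 and 76.8 FPKM in PEF5, PEF7 and PEF8 and 0.421, 15.7 and 1.45 FPKM in piPSC5, piPSC7 and piPSC8 (log2 fold change -4.40, SE 0.86, limma adjusted p = 0.00633). Among the piPSCs, piPSC7 kept the most. COL1A1 and COL1A2 had log2 fold changes of -7.32 and -7.09 (limma adjusted p = 0.00236 and 0.000788). IBSP, bone sialoprotein and chosen once its values had been seen, had 0 fragments in each PEF library and 288, 300 and 1 in piPSC5, piPSC7 and piPSC8, at least 81.5-fold higher over the group, or 52.8-fold without piPSC7. This was not called (limma adjusted p = 0.0677), and was called without piPSC8 (0.000564) and with quantile normalization (0.0479). SP7, ALPL, MMP13 and COL10A1 were too low to be tested, and BGLAP was not analysed here.

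The RUNX motif, TGTGGT or ACCACA on either strand, was searched in the same windows, and in the promoters named here no match of it overlapped one of the TEAD letters. It was present in 16.1% of all promoters and in 11.5% of those of tested genes, 11.2% of those called lower and 11.7% of those called higher. RUNX2 held matches at -102 and 26 and RUNX3 at -122 and -114, while the window of RUNX1 held none. Matches were held by 4 of 9 promoters of the RUNX1 targets and 2 of 9 of the RUNX2 targets. Among the called genes of these lists, GFI1 had a match at -34, CSF2 at -62 and SPP1 at -70, and MYB, COL1A1 and COL1A2 had none. The stretches of CSF2 and GFI1, which had 0 fragments in each piPSC library, are shown with the match in capitals. Both lie on the plus strand, at chr2:134354638-134354691 and chr4:124619829-124619882, before the RefSeq gene starts at 134354724 and 124619887 and in no RefSeq exon. The expression table starts these genes at 134354426 and 124622419, so that its model of CSF2 includes the stretch.
CSF2: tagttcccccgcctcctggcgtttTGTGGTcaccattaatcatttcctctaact
GFI1: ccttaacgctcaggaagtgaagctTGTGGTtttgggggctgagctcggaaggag

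Marker lists of other cell types were read beside these results, and their part in them was not tested. Of 8 blood cell markers 6 were in the table, 4 were tested and 2 were called lower, beside 21.5% of all genes tested, with summed levels of 14.8, 26.8 and 27.8 FPKM in the PEFs and 3.84, 4.1 and 4.23 FPKM in the piPSCs. The most abundant in the PEFs, the monocyte receptor CD14, was between 9.2 and 21.9 FPKM in PEFs and between 0.11 and 0.239 FPKM in piPSCs (limma adjusted p = 0.000435). The actin bundler LCP1 was the other (0.0228), and was not called without piPSC5, piPSC7 or piPSC8 (between 0.0506 and 0.0611). TYROBP was at 0 in each piPSC library, and SPI1 was lower by its mean but not called (limma adjusted p = 0.219). CD79A went the other way, with 0.13, 0.0693 and 0.255 FPKM in the PEFs and 0.308, 0.698 and 0.298 FPKM in the piPSCs. It was too low to be tested. CD68 was also higher by its mean, at 1.83 ± 0.963 against 1.39 ± 0.791 FPKM, and was not called (limma adjusted p = 0.62). PTPRC and CD3E were not analysed here. Of 8 trophoblast markers, the cell type for which TEAD4 is known, 7 were in the table, 4 were tested and all 4 were called lower, beside 21.5% of all genes tested. They summed to 7.57, 12.6 and 30.1 FPKM in the PEFs and 1.46, 2.02 and 0.761 FPKM in the piPSCs. GATA2 led by the mean over the 6 libraries, and TFAP2A in PEF7, piPSC5 and piPSC7. With the cell line as a block, TFAP2A (adjusted p = 0.051) and TFAP2C (0.0732) were not called. TFAP2A was not called without PEF7, PEF8, piPSC5 or piPSC8 either (between 0.0973 and 0.129), nor TFAP2C without PEF7, piPSC5, piPSC7 or piPSC8 (between 0.0763 and 0.108). TFAP2A also lost its call with a pseudocount of 0.1 (0.0597), without a filter (0.0776) and with voom (0.0757), and TFAP2C with quantile normalization (0.0637). TFAP2C was at 0 in each piPSC library and passed the filter by its PEF levels alone, ELF5 was at 0 in each PEF library, and CDX2 was not analysed here.

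Of 8 epithelial markers 7 were in the table, and all 7 were too low to be tested. Their sums were 0.193, 0.627 and 1.12 FPKM in the PEFs and 0.638, 2.5 and 0.5 FPKM in the piPSCs, with CLDN3 as the most abundant in the piPSCs, at 0 in the PEFs, and GRHL2 not analysed here. By mean level KRT8, CDH1 and ESRP1 were also higher in the piPSCs. The means of EPCAM (0.0554 to 0.00481 FPKM), CLDN4 (0.214 to 0.0287) and KRT18 (0.263 to 0.032) were lower. Of 8 bone and cartilage markers 7 were in the table, with sums of 2.71, 5.37 and 0.908 FPKM in the PEFs and 11.2, 14.8 and 0.365 FPKM in the piPSCs, nearly all of it IBSP in piPSC5 and piPSC7. SOX9, a cartilage factor, was called lower (limma adjusted p = 0.0342), but not without PEF5, PEF7, piPSC5, piPSC7 or piPSC8 (between 0.0698 and 0.0941), without a filter (0.0516) or with quantile normalization (0.0528). The 5 endothelial markers summed to 0.581, 0.513 and 2.59 FPKM in the PEFs and 0.38, 1.15 and 0.0382 FPKM in the piPSCs, with PECAM1 as the most abundant other than in piPSC5 and piPSC7, where TEK was. PECAM1 alone was tested and was not called (limma adjusted p = 0.102). The 5 keratinocyte markers summed to 3.04, 3.27 and 3.35 FPKM in the PEFs and 5.3, 9.12 and 4.74 FPKM in the piPSCs, mostly KRT10. KRT10 was called higher (limma adjusted p = 0.0291), but not with the cell line as a block (0.0633), under median ratio (0.101) or equal sum (0.19) rescaling, without a filter (0.0587), with voom (0.0821), or without any single library other than piPSC8 (between 0.0557 and 0.089). Of 5 muscle markers 3 were in the table, with sums of 0.151, 0.0404 and 0.466 FPKM in the PEFs and 0.165, 14.2 and 2.51 FPKM in the piPSCs. Nearly all of this was DES, which was not called (limma adjusted p = 0.133) other than without piPSC5 (0.0255), while MYOD1 and PAX7 were at 0 in each piPSC library, and MYOG and ACTA1 were not analysed here.

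The tested genes whose log2(FPKM + 1) followed a member most closely over the 6 libraries were listed by Pearson correlation, as a description of libraries that fall into 2 groups. For RUNX1 they were GPC4 (r = 0.998), SLC35E4 (0.997) and PLP2 (0.997). For YAP1 they were FES (0.999), C20orf196 (0.996) and EVC2 (0.996), and for TEAD4 they were TASP1 (0.999), TXNRD2 (0.999) and BRD9 (0.998).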

How the data were processed

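FPKM values per gene, deposited by the authors for 3 PEF and 3 piPSC libraries, were used. The submitters' processing notes name HISAT2 2.1.0, Bowtie2 2.2.3, HTSeq 0.6.0 and Sscrofa11.1, without their roles. How fragments shared by genes were counted is not given in the sources used here. Fragments were recovered at the smallest gene length that gave whole numbers in all libraries, within 0.002 of a fragment, widened for large counts to at most 0.2. Such a length was found for all 18007 genes, and the table holds between 98.9% and 99.3% of each total. A value of 0 was read as at most 3 fragments, which gives bounds for folds and covers counting error only. PEFs and piPSCs were compared by limma 3.58.1 in R 4.3.3 (lmFit, eBayes with trend) on log2(FPKM + 1), over 12428 genes with a mean of at least 0.5 FPKM, two-sided, with Benjamini-Hochberg adjustment. Replicates are 3 cell lines per group. The fit was unpaired, and the line as a block was an alternative, since piPSC lines came from the PEF lines of the same number. Deviations from group means correlated with r = 0.0921, 0.0946 and 0.08 within lines and between -0.121 and 0.0553 across lines. Shares were tested by exact permutation in scipy 1.17.1. Other alternatives were a pseudocount of 0.1, other filters, rescalings, quantile normalization, no trend, voom on fragments and leaving out each library. Promoters and exons came from RefSeq on Sscrofa11.1, read with pysam 0.24.0. Members and lists were chosen with earlier results of these data known. Genes named from the pathway lists were all those called and some that were not, and those named from the marker lists were some of each, picked after their values were seen. Of genes listed by identifier only, CLDN3 was named from a reference table.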

Additional observations from a re-analysis of the deposited data

How the results depend on the processing

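With the cell line as a block, 5933 genes and 3 of the 10 family members were called, against 6430 and 4, and among the family members only TEAD3 lost its call. Of the other genes named, KAT6B, TFAP2A, TFAP2C and KRT10 lost their call with the block and CRIM1 gained one, and it changed no other call. Leaving out 1 library gave between 2 and 4 family members called, and between 4829 and 6001 genes. Other settings gave between 3 and 5 family members, and between 6092 and 6497 genes.

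Over 63 named genes, 936 alternative log2 fold changes were computed. Of these, 803 kept their direction and their side of the threshold, 96 lost a call, 27 gained one and 10 changed sign. The changed signs were those of RUNX2 (-0.13) and CBFB (-0.01) without piPSC5, CBFB at the median ratio (-0.17) and equal sums (-0.23), TEAD1 without PEF5 (0.20) or piPSC8 (0.03), TEAD2 without PEF8 (0.06) or piPSC8 (0.28), and WWTR1 (-0.08) and IGFBP3 (0.55) without piPSC7. With 1 library left out the log2 fold change ran from -0.13 to 0.96 for RUNX2, -0.01 to 0.18 for CBFB, -0.27 to 0.20 for TEAD1, -0.39 to 0.28 for TEAD2, -0.08 to 1.16 for WWTR1 and -1.83 to 0.55 for IGFBP3. None of the values with a changed sign was called before or after the change, and the cause was not tested. RUNX3, TFAP2C and PECAM1 were not tested at a mean of at least 1 FPKM or without PEF8, nor GFI1 at that mean or without PEF5, nor SOX2 at that mean.

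With recovered fragments the share of RUNX1 differed by -21.2 percentage points in place of -34.4, of RUNX2 by 26.1 in place of 39.3 and of YAP1 by -12.2 in place of -21.9. The RUNX3 share differed by -4.91 percentage points, and by -1.97 without PEF8, and its p was 0.2 with recovered fragments. The TEAD1 share differed by 0.315 percentage points, by between -1.86 and 4.39 with 1 library left out (-1.58 without PEF7, -1.86 without PEF8 and -0.629 without piPSC5), and by -13.1 with recovered fragments (exact permutation p = 0.1). The TEAD2 share differed by 0.741, by between -2.3 and 3.74 with 1 library left out (-0.62 without PEF5 and -2.3 without piPSC5), and by -4.9 with fragments (0.3). Fragments are not per length, and long genes weigh more in such a share. Genes with few fragments, such as RUNX3 in the piPSCs, are limited by depth. With the line as a block, the exact permutation p of the share was 0.25 for RUNX1, RUNX2, RUNX3, TEAD3 and TEAD4, the smallest this test allows. For YAP1 it was 0.5.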
